A study of Mus musculus with 8 samples.

Results

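The circadian clock genes were taken by symbol from the table of liver transcripts. All 10 (Arntl, Npas2, Clock, Per1, Per2, Per3, Cry1, Nr1d1, Nr1d2 and Dbp) were among the 11784 genes listed. Livers came from male C57BL/6J mice that were switched at 9 weeks of age to an amino acid defined diet, Control (code TD.140711) for one group and Low AA (code TD.140712) for the other, the latter with fewer calories from amino acids and more from carbohydrate. The mice ate these diets for about 4 months and were killed in the morning after an overnight fast of about 16 hours, with 4 mice per diet. Each mouse was collected at 1 time, and the hour for each mouse is not given in the sources used here, so a difference in hour of collection and a difference in clock phase cannot be told apart. Values are scaled read counts, that is, whole numbers that the authors had put on a common scale between mice. They summed to between 27876664 and 30799385 per mouse.

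The clock of the liver is a loop of transcription and repression that runs in each hepatocyte and is set by feeding time and by signals from the brain. Arntl encodes BMAL1, which pairs with CLOCK or NPAS2 on E-box sequences and activates the Per, Cry, Nr1d1, Nr1d2 and Dbp genes. PER and CRY proteins then inhibit that pair, REV-ERB proteins from Nr1d1 and Nr1d2 repress Arntl, Npas2, Clock and Cry1 through REV-ERB response elements, and DBP activates genes that carry D-box sequences. The activator transcripts and most of the repressor and output transcripts therefore peak at opposite parts of the day.

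Letters of these elements were looked for on both strands in RefSeq promoter windows of GRCm38.p6, each of 300 bases, from 250 before to 50 after a transcript start. A window was found for 9 of the 10 genes, 13 windows in all, and Per2 had none. The letters searched were CACGTG for the E-box, TTATGTAA or TTACGTAA for the D-box, and TAGGTCA or TGGGTCA for the REV-ERB response element. The stretches with a match are shown because they place the elements of the loop beside genes whose values follow, with the match in capitals, 5′ to 3′ on the strand of the gene.
Per3, D-box, chr4:151044806-151044880, minus strand: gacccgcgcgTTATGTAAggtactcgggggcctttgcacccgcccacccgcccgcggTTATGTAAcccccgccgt
Arntl, REV-ERB response element, chr7:113207530-113207559, plus strand: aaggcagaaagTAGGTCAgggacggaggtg
Cry1, E-box, chr10:85185097-85185126, minus strand: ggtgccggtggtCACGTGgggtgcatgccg
Per1, E-box, chr11:69098771-69098800, plus strand: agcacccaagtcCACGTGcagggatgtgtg
The Per3 window held the D-box letters at 2 places, a motif found in 1.06% of all 32851 windows. E-box letters occur in 7.15% of all windows and the REV-ERB letters in 6.45%. The Arntl match lies after the transcript start. No match to any of the letters was found in the windows of Npas2, Clock, Dbp, Nr1d1 and Nr1d2. Matches are letters only, and the windows leave out elements farther away. In the GENCODE annotation of GRCm38, the build named in the submitters' processing notes as mm10, the gene Arntl spans chr7:113207465-113314126, Npas2 chr1:39193731-39363236, Per3 chr4:151003652-151044665, Cry1 chr10:85131700-85185064 and Dbp chr7:45705088-45710203.

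No clock gene passed the test between diets. Of the 10 genes, 0 had a limma adjusted p under 0.05, where 0.399% of all 11784 genes did, and 1, Dbp, had an unadjusted p under 0.05, where 11.8% of all genes did. In 0 of the 10 were the diets free of overlap, where 6.81% of all genes were. The 3 activator transcripts and the repressor transcript Cry1 had higher means on the Low AA diet. Dbp, Per3 and Per2 had lower means, and Nr1d1, Nr1d2 and Per1 had nearly equal means. The median size of the difference was 0.53 on the log2 scale over the 10 genes and 0.14 over all genes, but the spread between mice was also wide. These are bulk livers, in which fewer cells of a type and less RNA per cell cannot be told apart.

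**Figure D1:**
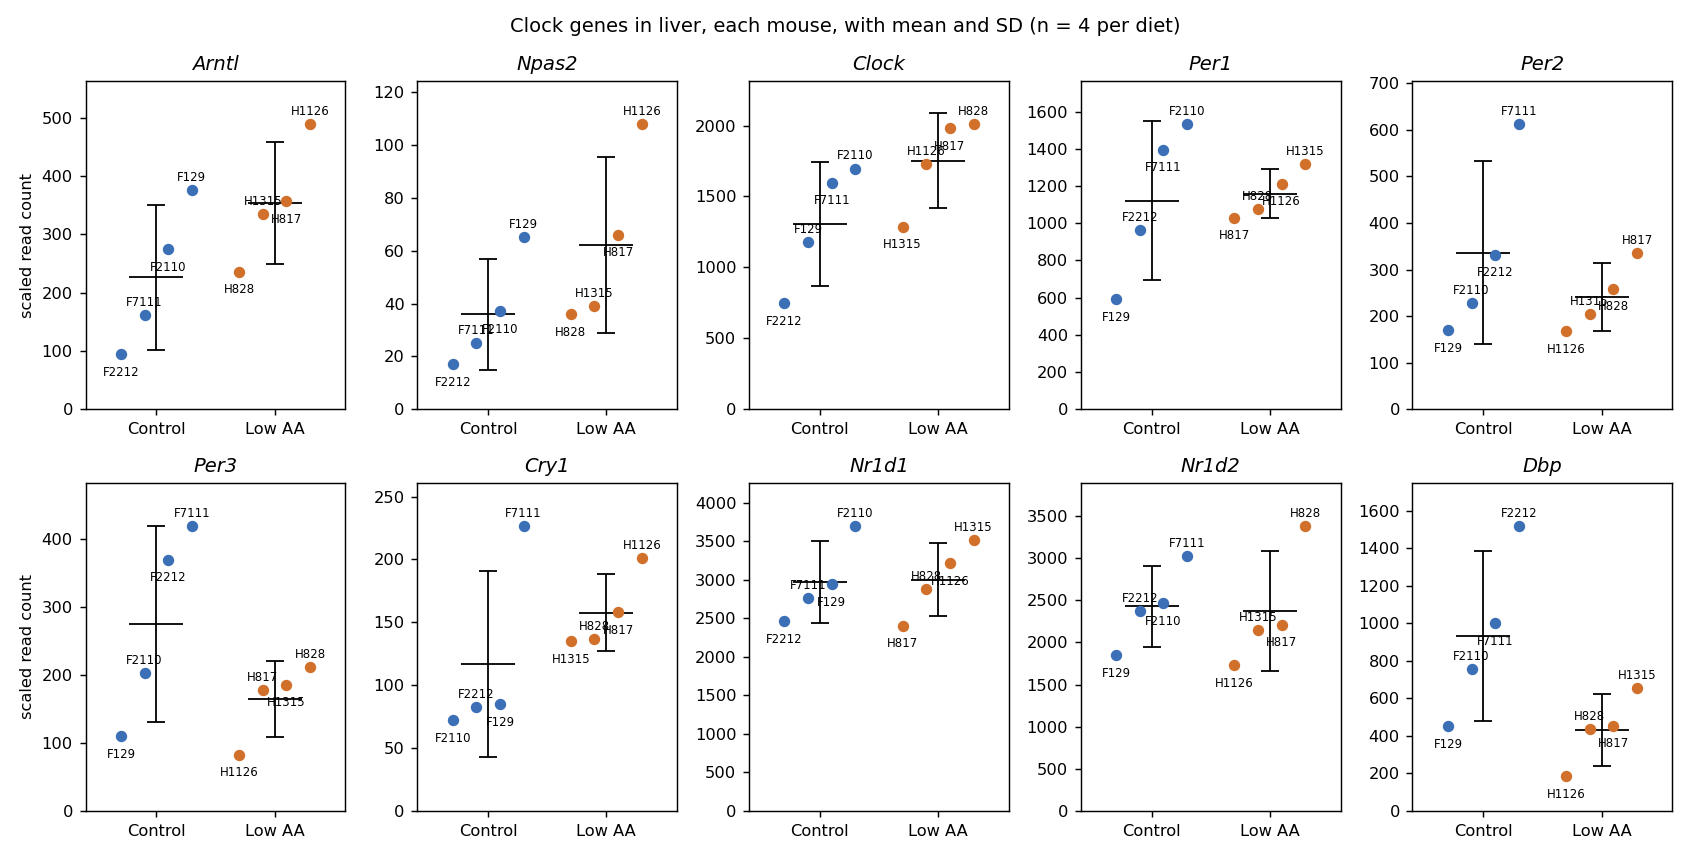
Scaled read count of each clock gene in each mouse, Control on the left and Low AA on the right of each panel. Points are mice, and the bar and whiskers are the mean and SD of 4 mice. Every panel shows overlap between the diets, with F129 beside the Low AA mice for Arntl, Npas2, Per3 and Dbp.

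Arntl encodes the activator that has no substitute in the loop. Its scaled read counts were 376, 94, 162 and 275 in Control mice F129, F2212, F7111 and F2110, and 490, 236, 357 and 335 in Low AA mice H1126, H828, H817 and H1315. In Control mice 3 of 4 values lay below the median Low AA mouse, but F129 lay above every Low AA mouse except H1126, so the groups overlapped. The means were 227 ± 124 and 355 ± 105 (SD, n = 4 each), a log2 difference of 0.78 (standard error 0.38, limma adjusted p = 0.474). Without F2212 the log2 difference was 0.42, and without F129 it was 1.08.

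Npas2 encodes an alternative partner of BMAL1 and was listed at low values. It had 65, 17, 25 and 37 in F129, F2212, F7111 and F2110, and 108, 36, 66 and 39 in H1126, H828, H817 and H1315. The order of the Control mice was that of Arntl, with F129 the highest and F2212 the lowest, and H1126 was again the highest of all. The log2 difference was 0.80 (standard error 0.44, limma adjusted p = 0.534). Without H1126 it was 0.49.

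Clock encodes the main partner of BMAL1 and varied less. Its values were 1178, 747, 1598 and 1697 in F129, F2212, F7111 and F2110, and 1727, 2012, 1983 and 1287 in H1126, H828, H817 and H1315. The groups overlapped, and F2212 was the lowest of the 8 mice, as for Arntl and Npas2. The log2 difference was 0.47 (standard error 0.25, limma adjusted p = 0.512) and dropped to 0.23 without F2212.

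Per1, Per2 and Per3 encode the period proteins, which hold back the activators. Per3 had 110, 370, 420 and 203 in F129, F2212, F7111 and F2110, and 83, 212, 178 and 186 in H1126, H828, H817 and H1315. H1126 and F129 were the lowest of all mice and F7111 and F2212 the highest, so both ends of the Control range lay outside the other 3 Low AA mice. The log2 difference was -0.64 (standard error 0.42, limma adjusted p = 0.619), and it was -1.02 without F129 and -0.34 without H1126.

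Per2 had 170, 332, 613 and 229 in the Control mice in the same order and 167, 259, 335 and 204 in the Low AA mice. H1126 and F129 were again the lowest, and F7111 stood above the other mice. The log2 difference of -0.35 (standard error 0.36, limma adjusted p = 0.775) came to -0.01 without F7111. Per1, which also responds directly to glucocorticoids, had 593, 964, 1395 and 1534 in the Control mice and 1213, 1077, 1030 and 1318 in the Low AA mice. The 4 Low AA values lay within the Control range, with a log2 difference of 0.13 (standard error 0.26, limma adjusted p = 0.894) that was -0.14 without F129.

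Cry1 encodes a cryptochrome that represses the activators late in the cycle. Its values were 85, 83, 227 and 72 in F129, F2212, F7111 and F2110, and 201, 137, 158 and 135 in H1126, H828, H817 and H1315. Control mice F129, F2212 and F2110 lay below every Low AA mouse, and F7111 lay above them all. The log2 difference was 0.58 (standard error 0.33, limma adjusted p = 0.539). Without F7111 it was 0.96 (standard error 0.17, limma adjusted p = 0.0696), and that fit was the closest to the threshold of any for the 10 genes.

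Nr1d1 and Nr1d2 encode the REV-ERB repressors. Nr1d1 had 2945, 2466, 2758 and 3704 in F129, F2212, F7111 and F2110, and 3216, 2875, 2406 and 3511 in H1126, H828, H817 and H1315. The groups covered the same range. The log2 difference was 0.02 with a 95% confidence interval of -0.32 to 0.35 (limma adjusted p = 0.982), and its sign turned in 4 of 8 repeats with a mouse omitted. Nr1d2 had 1846, 2375, 3026 and 2467 in the Control mice and 1727, 3388 and 2147 in H1126, H828 and H1315, with H817 just above H1315. F129 and H1126 were the lowest of the 8, and the log2 difference was -0.06 with a 95% confidence interval of -0.52 to 0.40 (limma adjusted p = 0.946).

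Dbp encodes a transcription factor that carries the rhythm to liver genes for metabolism of drugs and lipids. It had 451, 1521, 1002 and 758 in F129, F2212, F7111 and F2110, and 184, 435, 454 and 656 in H1126, H828, H817 and H1315. Control mice F2212, F7111 and F2110 lay above every Low AA mouse, whereas F129 lay among them. The means were 933 ± 452 and 432 ± 193 (SD, n = 4 each), a log2 difference of -1.11 with a 95% confidence interval of -2.03 to -0.19 (limma adjusted p = 0.321, unadjusted p = 0.023 in the limma fit over all genes). Without F129 the log2 difference was -1.41 (limma adjusted p = 0.213), and without H1126 it was -0.75 (limma adjusted p = 0.574). In the same annotation, 539 exon bases of Dbp, 18.0% of its total, lie over exons of Sphk2 on the opposite strand, and 263 exon bases of Nr1d1 lie over exons of Thra. The library kit marks strand, but the strand setting of the counting is not given in the sources used here, so reads shared with these neighbours cannot be told apart.

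**Figure D2:**
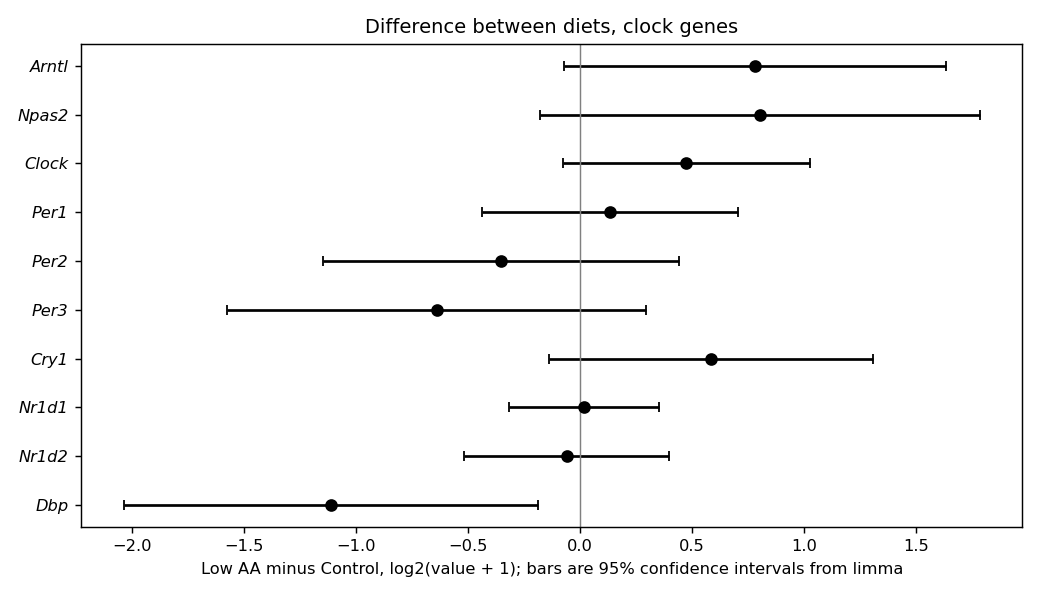
Difference between diets for each clock gene, Low AA minus Control, on the scale of log2(value + 1). Points are limma estimates from 4 mice per diet and bars are 95% confidence intervals, which cross 0 for every gene except Dbp before adjustment over all genes.

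The spread between mice of the same diet was wide for most of these genes. The SD of the deviations from the diet means had a median of 0.60 on the log2 scale over the 10 genes, against 0.22 over all genes, and all 10 were above that median. For 8 of the 10 the SD was above the 90th percentile of all genes. Npas2, at 0.76, was at the 98.4th percentile, with Per3, Dbp, Arntl and Per2 also above the 97th, whereas Nr1d1, at 0.24, was at the 58.6th. Within the Control group Arntl differed 4.0-fold and Per3 3.82-fold between the highest and the lowest mouse, and within the Low AA group Dbp differed 3.57-fold. The highest and lowest mice were F129 and F2212 for Arntl, F7111 and F129 for Per3, and H1315 and H1126 for Dbp. F2212 also stood apart in other genes, given below.

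**Figure D3:**
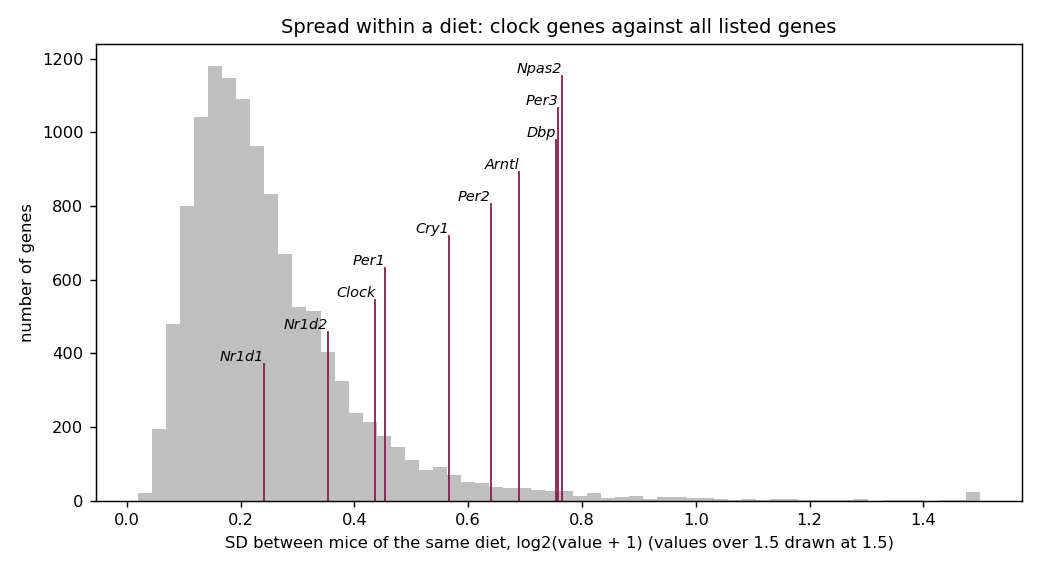
Histogram of the SD between mice of the same diet for all 11784 genes, on the scale of log2(value + 1), with the clock genes marked by vertical lines. The height of a line carries no value. Nr1d1 and Nr1d2 lie in the body of the histogram and the other 8 genes in its upper tail.

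Of the 9 other clock genes, 3 passed the test of a relation with Arntl between mice. Over the 8 mice Npas2 followed Arntl, with Pearson's r of 0.940 (exact permutation test, two-sided, adjusted p = 0.00223 over 9 genes, unadjusted p = 0.000248) and Spearman's rho of 0.976 (exact permutation test, adjusted p = 0.00179). Per3 ran opposite to Arntl, with r of -0.897 (exact permutation test, two-sided, adjusted p = 0.0109, unadjusted p = 0.00243) and rho of -0.976 (exact permutation test, adjusted p = 0.00179). Dbp also ran opposite, with r of -0.872 (exact permutation test, two-sided, adjusted p = 0.0132, unadjusted p = 0.00439), but rho, -0.762, did not pass after adjustment (exact permutation test, adjusted p = 0.0827). Among the other 11774 genes, 2.34% had an r with Arntl of at least 0.8 in size, against 3 of the 9 clock genes.

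Values of r in the same directions were found within diets, the weakest for Dbp in Low AA mice. No test was made within a diet, and the permutation tests shuffled mice irrespective of diet. Taken on deviations from the diet means, r with Arntl was 0.916 for Npas2, -0.873 for Per3 and -0.812 for Dbp. Among the other genes, 3.15% had such an r of at least 0.8 in size. Over the 4 Control and the 4 Low AA mice apart, r was 0.98 and 0.90 for Npas2, -0.88 and -0.89 for Per3, and -0.98 and -0.65 for Dbp. Without F2212 and F7111, the 2 mice farthest from the median of Arntl, r was 0.919 for Npas2, -0.887 for Per3 and -0.686 for Dbp. The relation of Dbp no longer passed without F2212 alone (r = -0.795, exact permutation test, adjusted p = 0.0711) or without F7111 alone (r = -0.854, exact permutation test, adjusted p = 0.0577). Nr1d2 had r of -0.577 over all mice (exact permutation test, adjusted p = 0.207) and -0.889 without F2212 (exact permutation test, adjusted p = 0.0173).

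The other members did not pass in Pearson's r. Per2 had -0.672 (exact permutation test, adjusted p = 0.154, unadjusted p = 0.0685). Clock had 0.575 (exact permutation test, adjusted p = 0.207), which was -0.178 without F2212. Nr1d1 had 0.456, Cry1 0.218 and Per1 -0.0899 (exact permutation test, adjusted p = 0.329, 0.69 and 0.818).

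**Figure D4:**
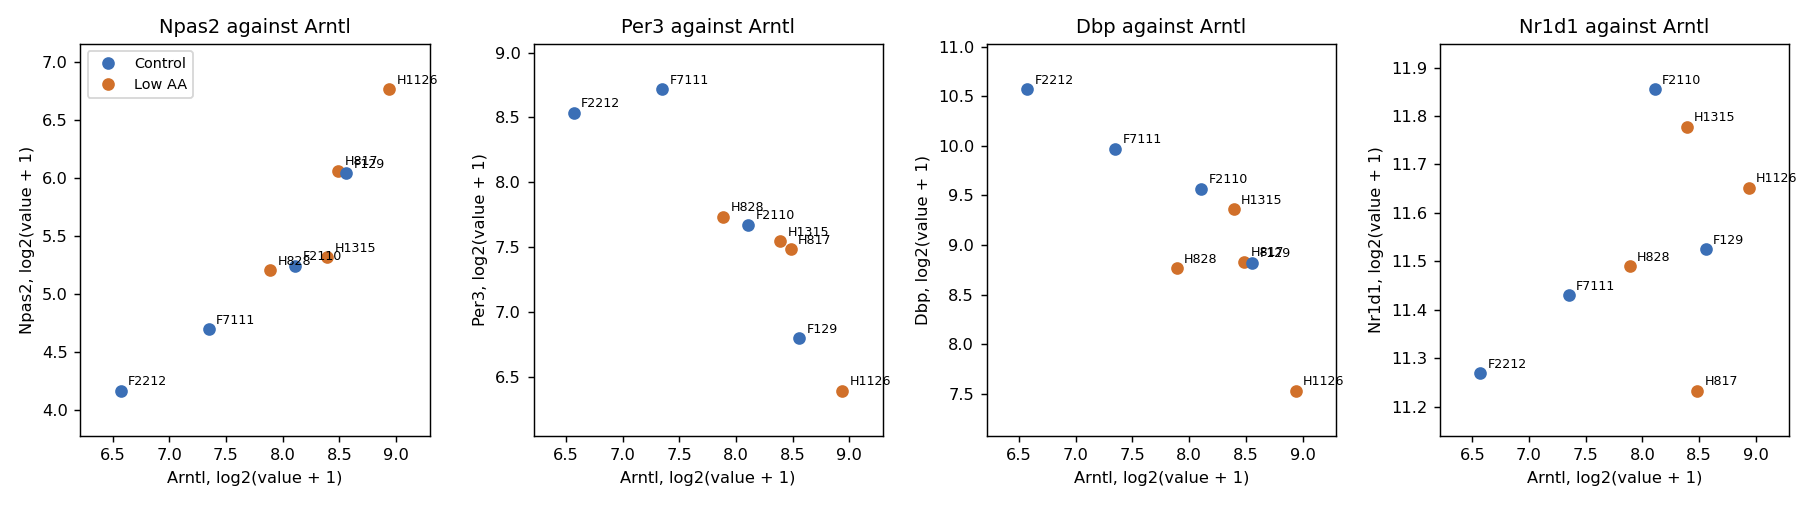
Npas2, Per3, Dbp and Nr1d1 against Arntl in the 8 mice, both axes on the scale of log2(value + 1), Control in blue and Low AA in orange. Npas2 climbs with Arntl, Per3 and Dbp descend, and Nr1d1 shows no clear slope. F129 lies beside H817 in the Npas2 and Dbp panels.

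A clock contrast was computed for each mouse as the mean log2 value of Arntl, Npas2 and Clock minus the mean log2 value of Per1, Per2, Per3, Nr1d1, Nr1d2 and Dbp, with Cry1 in neither arm because its peak lies between them. It has no unit of time and is a description, with no test. From the lowest to the highest it was -3.22 in F2212, -2.67 in F7111, -1.77 in F2110, -1.62 in H1315, -1.61 in H828, -1.01 in H817, -0.84 in F129 and -0.17 in H1126. Of the Control mice, 3 of 4 stood below all Low AA mice, and F129 stood within the Low AA range. The Control mice spanned 2.38, a 5.22-fold change in the ratio of the arms, and the Low AA mice 1.44. The means were -2.12 ± 1.05 for Control and -1.10 ± 0.68 for Low AA (SD, n = 4 each), so the difference between diets, 1.02, was smaller than the span within either diet. It was 0.65 without F2212, 0.71 without H1126 and 1.45 without F129, and leaving any 1 gene out of its arm kept H1126 the highest and F2212 the lowest mouse.

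**Figure D5:**
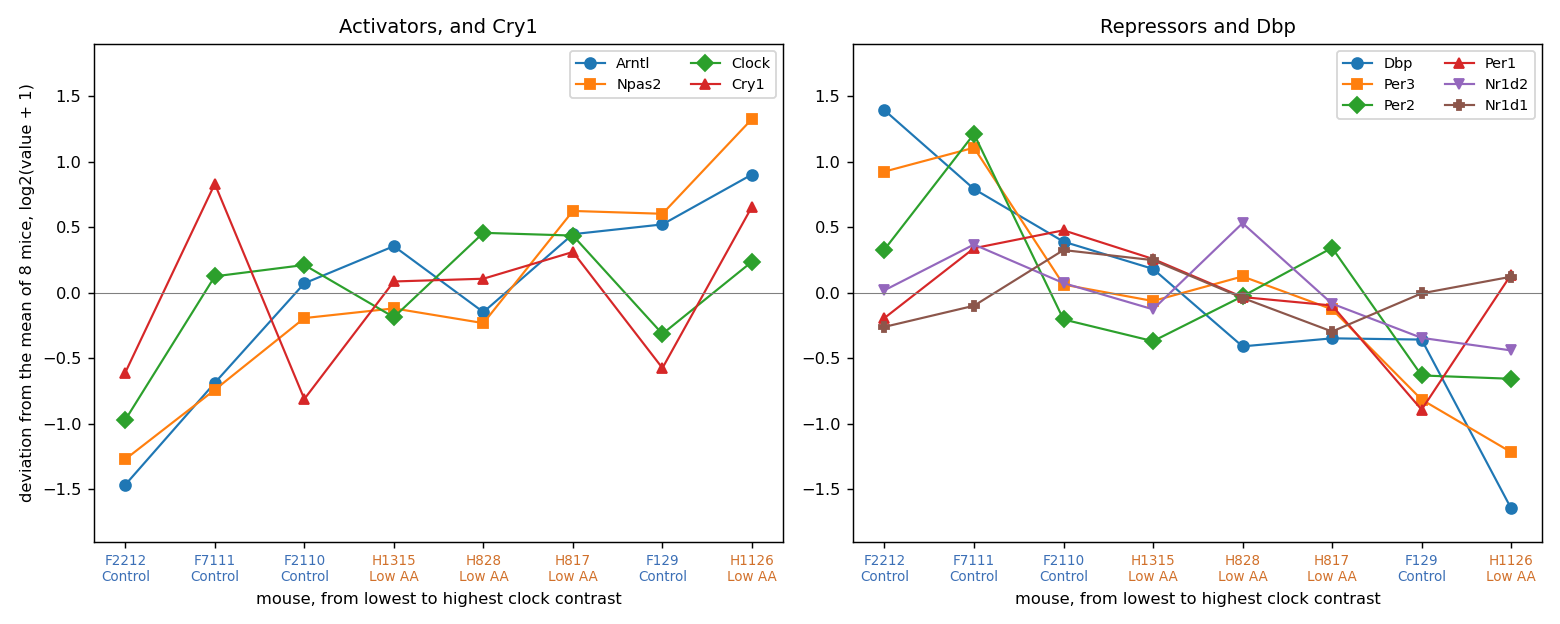
Deviation of each clock gene from its mean over the 8 mice, on the scale of log2(value + 1), with mice ordered from the lowest to the highest clock contrast. Arntl and Npas2 climb from F2212 to H1126, Dbp and Per3 descend, and the Control mouse F129 is second from the right. The contrast was made from these genes other than Cry1, so the order is no separate evidence.

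F2212 carried other marks beside its place in this order. Cela1, an elastase made mainly in the pancreas and the only 1 of 9 pancreas markers listed, was at 36587 in F2212, whereas the remaining Control mice had 130 to 178 and the Low AA mice 190 to 288. Saa1, an acute-phase gene, was at 57733 in F2212 and at most 2818 elsewhere. Hepatocyte markers were all listed, 8 of 8, and summed to between 2369958 and 2767506 in Control and 2604098 and 2839427 in Low AA mice. Blood markers, 5 of 8 listed, summed to between 4966 and 15854 in Control and 5346 and 7670 in Low AA mice, with the highest sum in F2212. Macrophage markers, 8 of 8 listed, ran from 5419 to 8467 and from 6147 to 8067, with F2212 again the highest. Endothelial and stellate markers, 10 of 10, ran from 11379 to 13998 and from 12260 to 14688, highest in H1126. Cholangiocyte markers, 4 of 5, ran from 1124 to 2265 and from 826 to 1316, highest in F129. Of 5 adipose markers 1 was listed, and of 4 muscle markers 0. No listed marker was at 0 in any mouse. By gene, 4 of 4 listed cholangiocyte markers had lower means on the Low AA diet, 2 of them with an unadjusted p under 0.05 and with a median log2 difference of -0.62. Likewise 4 of 5 blood markers had lower means, 3 with an unadjusted p under 0.05 and with a median of -0.49, and Alas2 did not overlap between diets. Macrophage markers had log2 differences above 0 for 8 of 8, 1 with an unadjusted p under 0.05 and with a median of 0.21. That of Lyz2 was 0.03, and its mean scaled read count was 1254 in Control and 1235 in Low AA mice. In these lists 0 markers passed a limma adjusted p under 0.05. Of all genes, 11.8% had an unadjusted p under 0.05, 6.81% did not overlap between diets and 0.399% passed the adjusted threshold. The part of these tissues in the clock values was not tested. Without F2212, r with Arntl was 0.927 for Npas2, -0.950 for Per3, -0.795 for Dbp and -0.178 for Clock.

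Other genes of the clock loop, outside the 10, showed a like order of mice in part. Of 11 genes 10 were listed, and 0 passed a limma adjusted p under 0.05, with 2 at an unadjusted p under 0.05 and a median log2 difference of -0.22. Of all 11784 genes, 0.399% passed the adjusted threshold and 11.8% the unadjusted one. Tef encodes a factor related to DBP. It had 2715, 5125, 5430 and 3571 in F129, F2212, F7111 and F2110, and 2190, 3776, 3438 and 3690 in H1126, H828, H817 and H1315. The lowest values were again those of H1126 and F129, and r with the clock contrast was -0.955 over all mice and -0.943 without F2212 and H1126, the 2 farthest from its median. Bhlhe41, which encodes the repressor DEC2, had 12, 37, 39 and 38 in the Control mice and 5, 7, 12 and 19 in the Low AA mice. Only F129 of the Control mice lay among the Low AA values, the log2 difference was -1.49 (standard error 0.48, limma adjusted p = 0.241), and r with the contrast was -0.820, or -0.675 without those 2 mice. Of the 10 listed genes, only these 2 had an r with the contrast of at least 0.8 in size, and Hlf had -0.310. Among all other genes, 2.69% had an r with the contrast of at least 0.8 in size.

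Genes for proteins that modify or degrade clock proteins were all listed, 14 of 14. Of these, 0 passed a limma adjusted p under 0.05, and 2 had an unadjusted p under 0.05, with a median log2 difference of 0.06. The shares over all genes were 0.399% and 11.8%, and 6.81% of all genes did not overlap between diets. Fbxl21, a ligase subunit that acts on cryptochromes, had 67, 79, 61 and 57 in the Control mice and 54, 51, 34 and 39 in the Low AA mice, with no overlap and a log2 difference of -0.57 (standard error 0.20, limma adjusted p = 0.288). Btrc, a ligase subunit for PER proteins, had a log2 difference of -0.32 (standard error 0.12, limma adjusted p = 0.33). Usp2, a protease that removes ubiquitin from clock proteins and was named after its values were seen, ran from 68 in F129 to 919 in F7111, with r of -0.743 with the contrast.

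Clock outputs in liver were listed for 15 of 15 genes, of which 0 passed a limma adjusted p under 0.05 and 3 had an unadjusted p under 0.05, with a median log2 difference of 0.10. Over all genes, 0.399% passed the adjusted threshold, 11.8% had an unadjusted p under 0.05 and 6.81% did not overlap. Cdkn1a, the cell cycle inhibitor p21, had 501, 159, 599 and 612 in F129, F2212, F7111 and F2110, and 1926, 619, 1438 and 1177 in H1126, H828, H817 and H1315. The diets did not overlap, though H828 was barely above F2110, and the log2 difference was 1.52 (standard error 0.45, limma adjusted p = 0.196). Upp2, a uridine phosphorylase, had 2093, 2918, 6875 and 4053 against 961, 1125, 1881 and 2886, a log2 difference of -1.21 (standard error 0.40, limma adjusted p = 0.258). F129 and H1315 were the mice that overlapped. Insig2, which holds back sterol synthesis, had a log2 difference of 0.53 (standard error 0.22, limma adjusted p = 0.389). Wee1, a kinase of the cell cycle with E-boxes in its promoter, had 69, 182, 137 and 75 in the Control mice and 72, 82, 96 and 92 in the Low AA mice. F2212 and F7111 stood above the rest, the log2 difference was -0.32 (limma adjusted p = 0.742), and r with the contrast was -0.867, or -0.740 without F2212 and H1126.

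Fasting and glucocorticoids also act on clock genes, and genes that respond to them are given beside the clock. Of 17 listed, 0 passed a limma adjusted p under 0.05 and 5 had an unadjusted p under 0.05, with a median log2 difference of 0.29. Among all genes these shares were 0.399% and 11.8%, and 6.81% did not overlap between diets. Sgk1, a kinase induced by glucocorticoids, had 762, 720, 796 and 1330 in the Control mice and 2159, 1564, 1660 and 2557 in the Low AA mice, with no overlap and a log2 difference of 1.16 (standard error 0.22, limma adjusted p = 0.0611). Fkbp5 and Tsc22d3, other targets of the glucocorticoid receptor, had log2 differences of 0.14 and 0.04, and in both F7111 was the highest mouse and F2212 the lowest. Ddit4, induced by fasting and stress, did not overlap between diets, with a log2 difference of 0.72 (standard error 0.25, limma adjusted p = 0.281).

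Igfbp1, a secreted protein held down by insulin, had 26532, 4873, 4130 and 19707 in F129, F2212, F7111 and F2110, and 30720, 32575, 15810 and 22357 in H1126, H828, H817 and H1315. F2212 and F7111, the mice with the lowest clock contrast, had the lowest Igfbp1, and r with the contrast was 0.831, or 0.740 without F2212 and H1126. G6pc and Pdk4, which serve glucose output and spare glucose in fasting, had log2 differences of 0.71 and 1.40 (limma adjusted p = 0.282 and 0.324). Of the 17 fasting and glucocorticoid genes, 1, Igfbp1, had an r with the contrast of at least 0.8 in size, where 2.69% of other genes did. The r was 0.757 for G6pc and 0.742 for Pdk4, but 0.114 for Pck1 and 0.011 for Ppargc1a. The part of feeding state in the clock values was not tested. Of 9 genes that respond to temperature, 0 passed a limma adjusted p under 0.05 and 2 had an unadjusted p under 0.05, with a median log2 difference of 0.07. The shares of all genes were 0.399% and 11.8%, with 6.81% free of overlap. Rbm3, a cold-inducible RNA binding protein, had 2564, 2010, 2503 and 2601 against 3285, 2793, 3146 and 3598, with no overlap and a log2 difference of 0.41 (standard error 0.12, limma adjusted p = 0.185). Hspb1, a small heat shock protein, had a log2 difference of -1.03 (limma adjusted p = 0.34).

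Among the 2646 other genes whose log2 values spanned at least 1 over the 8 mice, those most like the clock contrast were Clpx, Cldn1, Epha7, Slc45a3 and Fli1, with Pearson's r from 0.931 to 0.951. Those most opposed were C77080, Tef, Pcbp4, Rnase4 and Smad6, with r from -0.956 to -0.937. Tef was the only gene of the fixed clock lists among them. Rnase4, a secreted ribonuclease, had 16541, 41332, 31636 and 16011 in F129, F2212, F7111 and F2110, and 11016, 17078, 15439 and 21975 in H1126, H828, H817 and H1315. Clpx, a mitochondrial protease subunit, was highest in H1126, at 9030, and lowest in F2212, at 3517. Without F2212 and H1126 the r of these 10 genes was from 0.810 to 0.943 in size. They were chosen for their r from many genes, so these values are a description.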

How the data were processed

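Liver poly(A) RNA of 8 mice, 4 per diet, was sequenced from stranded libraries. Per the labels, the submitters' processing notes name STAR 2.5.0a, RSEM 1.2.6, edgeR 3.10.5 and build mm10, without their roles. The authors deposited 1 table with a signal per gene and mouse, which is a read count scaled between mice and rounded. How it was scaled is not given in the sources used here, so true depth is unknown. The table also holds the authors' signed fold change, a score, and the authors' FDR, a q-value, and both were left unused.

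Mice were grouped by the diet label. A linear model in limma 3.58.1 (R 4.3.3) was fitted to log2(value + 1) of all 11784 genes, unfiltered, with moderation along a mean-variance trend, and p-values were adjusted by the Benjamini-Hochberg method, with 0.05 as the threshold. Differences are Low AA minus Control, and on this scale they understate changes of low genes. The p-values set each difference against the spread between these mice and take the mice as independent. The mice were housed in groups and their cages are not given, so mice that shared a cage could not be allowed for. Correlations with Arntl used exact permutation tests in which the mice were permuted, with Benjamini-Hochberg adjustment over the 9 other genes. On simulated data for this comparison, with 200 of 11784 genes changed, 0% of genes changed by 0.5 on the log2 scale were called, 79.5% of those changed by 1 and 96.5% of those changed by 2. Those genes were drawn from all genes, and most clock genes vary more between mice, so these rates do not carry over to them.

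The clock genes and lists were chosen with earlier results of these data known. Genes named were the 10 clock genes, list members with an unadjusted p under 0.05, no overlap or an r with the contrast of at least 0.8 in size, and the 5 genes at each end of r with the contrast. 1 gene that met this rule is not reported here. Cela1 and Saa1 mark a mouse that stood apart, and Fkbp5, Tsc22d3, Lyz2, Hlf, Pck1 and Ppargc1a were named after their values were seen. Alternatives were added constants of 0.1 and 5, a restriction to the 8000 genes highest in mean value, equal column totals, quantile normalization, robust moderation, no mean-variance trend, and each mouse left out. Figures were drawn with matplotlib 3.10.9.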

Additional observations from a re-analysis of the deposited data

Results flagged for a closer look

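Within the Control group, mouse F7111 stood apart for Cry1, with a gap to the next mouse of 0.856 of the group's range on the log2 scale, where 0.829 is the limit for 4 samples. It had 227 scaled read counts, against 72 to 85 in the other Control mice. Of 22 groups of 4 mice examined, over the 10 clock genes and the clock contrast, 1 was beyond the limit, and chance alone gives about 1 in 20.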

How the results depend on the processing

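The counts of called clock genes, other clock loop genes, clock protein modifiers and clock outputs were 0 in limma under all 7 other settings and with each mouse left out. Among all genes, 47 were called, and there were 19 among the 8000 genes with the highest mean, 30 without a mean-variance trend, and 16 to 77 with a mouse left out. Npas2 and Cry1 were not among those 8000. The log2 difference of Nr1d1 was -0.013 after quantile normalization, and with a mouse left out it ran from -0.065 to 0.13, that of Per1 from -0.14 to 0.32 and that of Nr1d2 from -0.25 to 0.078, so these 3 signs are not settled. The other 7 clock genes kept their sign under every setting. With a mouse left out, the difference in clock contrast ran from 0.65 to 1.45, and r with Arntl ran from 0.93 to 0.97 for Npas2, from -0.95 to -0.87 for Per3, from -0.91 to -0.79 for Dbp, from -0.37 to 0.28 for Per1, from -0.18 to 0.70 for Clock and from -0.17 to 0.54 for Cry1. The causes were not tested. No paired analysis was possible because the mouse codes carry no replicate numbers shared between diets. With 4 mice per diet, simulated differences of 0.5 on the log2 scale, in genes drawn from all genes, were not called. Most clock genes vary more between mice, so the simulation sets no limit of detection for them, and larger differences could also be missed.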
